A study of Oryctolagus cuniculus with 16 samples.

Results

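A vein sewn into an artery is exposed at once to arterial pressure, after surgical handling and a period without blood flow. In such grafts, damaged wall cells and circulating leukocytes are known to release cytokines and chemokines within hours. Neutrophils arrive first, and monocytes that turn into macrophages follow. The medial smooth muscle cells and the adventitial fibroblasts of the vein later divide and lay down matrix, which thickens the wall. The earliest time point of one such experiment is described here, rabbit vein grafts taken 1 day after grafting, against the veins of a control group given a sham operation.

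Gene expression was measured in vein tissue of male rabbits on Agilent one-colour arrays. The day 1 group held 6 arrays, the sham surgery group held 4 and the day 7 group, which entered the same model, held 6. These 10 day 1 and sham arrays, of 16 in the series, were taken by the titles of the samples. Age, strain, the number of animals, the site of the vein and what the sham operation involved are not given in the sources used here. The labels of all 16 samples call the tissue a vein graft, the sham group included. Smooth muscle actin (ACTA2) read 17.89 to 18.50 and smooth muscle myosin (MYH11) 16.11 to 17.19 in the sham samples, so that the defining markers of a muscular vessel wall were present. All values are log2 of the background-subtracted spot signal after quantile normalization, so that a difference of 1 is a 2-fold difference.

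The 6 day 1 arrays behaved as 2 samples. Arrays 1, 3 and 5 differed from each other by a standard deviation (SD) of 0.08 to 0.09 over bright spots. So did arrays 2, 4 and 6. The spread between spots of 1 probe would give a difference of 2 arrays a larger SD, 0.12 to 0.16. The 6 arrays were therefore averaged to 2 samples, and the day 7 arrays were treated in the same way. The 4 sham arrays were kept as 4 samples, but sham replicates 1 and 2 stood apart from 3 and 4. The SD of the difference was 0.19 to 0.22 within these pairs and 0.72 to 0.73 between them. Between the 2 day 1 samples it was 0.19 to 0.20, about as small as within a sham pair. All 4 sham values are given for the genes described most fully, and every other fold change rests on the mean of both pairs. Nothing in the labels says that the samples came from separate animals, so that p-values measure the spread between these samples, which may be technical. The sham arrays were scanned apart from all graft arrays, so that scan and surgery cannot be told apart. On day 1, 33235 to 34295 probes of an array cleared background, against 34832 to 36319 in sham. The 75th percentile of the signal before normalization had a median of 942 on day 1 and of 1594 in sham, and its part in the results was not tested.

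Differential expression was widespread on day 1. For a gene with several probes the brightest 1 was taken. Of 248 genes with several probes among the gene lists below and the largest changes, 181 had the same call on all probes. Other probes of a gene may thus differ where none are mentioned. Of 19292 genes tested, 5543 rose and 4275 fell, which is 28.7% and 22.2% of the genes and 50.9% together. A gene was called when its adjusted p was below 0.05 and its absolute log2 fold change was at least 1. Of the genes that fell, 691 were well above background on no day 1 array. Of those that rose, 256 were well above background on no sham array. The 1998 genes that could be named held 505 that rose and 515 that fell, or 25.3% and 25.8% and 51.1% together. Fold changes had a median of 0.25 (log2) over the whole table and of 0.12 over the named genes, and the medians of the gene lists below are read against 0.25. With each array scaled to its 75th percentile instead, the median over all genes was 0.67 and 69.7% of the called genes were higher, against 56.5% after quantile normalization. Samples of the 2 groups did not overlap in 81.8% of all genes tested, so that a gap between the groups is not particular to any gene below.

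**Figure D1:**
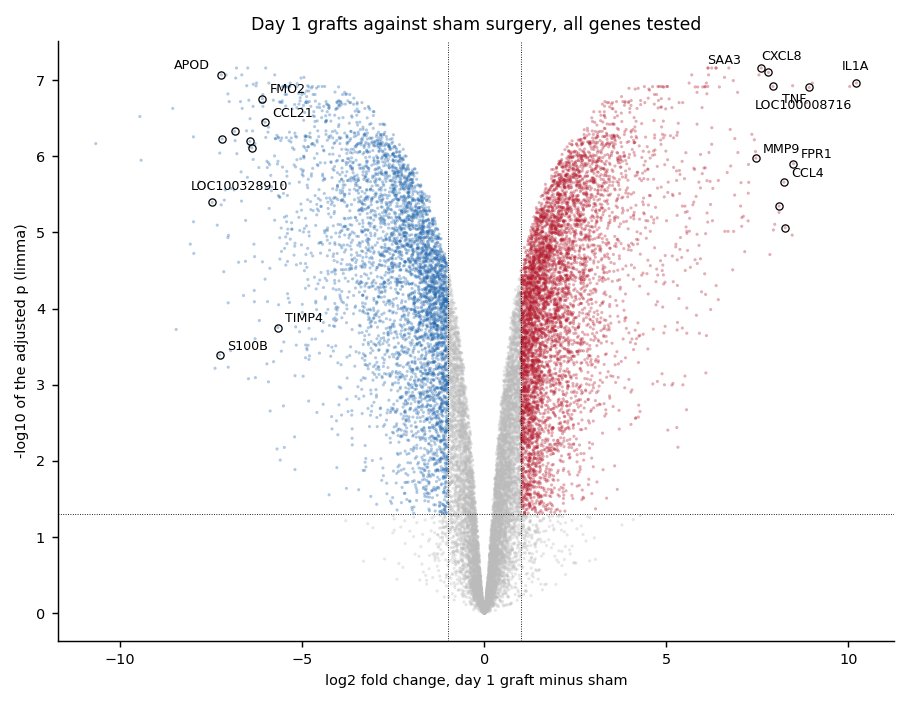
Log2 fold change of day 1 grafts over sham (x axis) against -log10 of the limma adjusted p (y axis) for 19292 genes. Red points are the 5543 called higher, blue points the 4275 called lower, grey points the rest, dotted lines the thresholds and open circles the 20 leading named genes, of which IL1A lies farthest to the right at 10.22.

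The 10 largest rises were taken among named genes called and well above background on every day 1 and sham array. Samples of the 2 groups also had to lie apart, without overlap. The cytokines IL1A and TNF, the chemokines CCL4 and CXCL8 and the leukocyte genes FPR1 and MMP9 were among them. IL1A, the cytokine interleukin 1 alpha, read 16.08 and 16.15 in the day 1 samples and 5.84, 5.53, 6.05 and 6.18 in the sham samples. It moved from among the dim genes of the vein to among the bright ones, a 1191-fold rise (log2 fold change 10.22 ± 0.18 (SE), adjusted p = 1.09e-07). FPR1, the receptor by which neutrophils sense formyl peptides of bacteria and mitochondria, read 14.87 and 14.87 on day 1 and 5.80, 5.89, 6.92 and 6.92 in sham. The rise was 359.7-fold (adjusted p = 1.25e-06). CCL4, a chemokine for monocytes and T cells, read 18.26 and 18.26 on day 1 and 9.42, 9.43, 10.61 and 10.66 in sham, a 299.8-fold rise (adjusted p = 2.19e-06). TNF, the cytokine tumour necrosis factor, read 15.17 and 15.24 on day 1 and 7.19, 7.0, 7.44 and 7.47 in sham. Its 4 sham samples lay close together, and TNF rose 243-fold (adjusted p = 1.21e-07).

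CXCL8, the main chemokine for neutrophils, read 18.57 and 18.65 on day 1 and 10.72, 10.66, 10.96 and 10.87 in sham, a rise of 224-fold (adjusted p = 7.95e-08). SAA3, an acute phase serum amyloid A protein, read 18.97 and 18.99 on day 1 and 11.36, 11.28, 11.41 and 11.46 in sham, a rise of 195-fold (adjusted p = 6.94e-08). Both were already bright in sham veins and were near the top of the scale on day 1. MMP9, the gelatinase stored in neutrophil granules, read 15.78 and 15.74 on day 1 and 7.94, 7.78, 8.72 and 8.77 in sham, a rise of 176-fold (adjusted p = 1.06e-06). The other 3 were LOC100008716 (8.92), APOBEC1, an RNA-editing cytidine deaminase (8.26), and KMO, an enzyme of tryptophan breakdown (8.10). MMP9, FPR1 and SAA3 had 1 probe each, and every probe of the other 7 genes rose.

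The 10 largest falls were likewise taken among named genes well above background on every day 1 and sham array, without overlap between the groups. Proteins of Schwann cells, microfibrils and lymphatic endothelium and a retinol dehydrogenase were among them. S100B, a calcium-binding protein of Schwann cells and adipocytes, read 4.58 and 4.76 on day 1 and 10.38, 10.43, 13.51 and 13.43 in sham. Sham replicates 3 and 4 were about 3 log2 units above replicates 1 and 2, and day 1 was below both pairs (log2 fold change -7.27 ± 1.0, adjusted p = 4.07e-04). APOD, a lipid-binding apolipoprotein of fibroblasts and nerve sheaths, read 9.23 and 9.35 on day 1 and 16.47, 16.41, 16.53 and 16.63 in sham, a 149-fold fall (adjusted p = 8.55e-08). ADH1A, an alcohol and retinol dehydrogenase, read 10.04 and 9.58 on day 1 and 16.68, 16.27, 16.85 and 16.88 in sham, a 116-fold fall (adjusted p = 4.72e-07). MFAP5, a glycoprotein of elastic microfibrils, read 6.42 and 6.55 on day 1 and 13.17, 13.24, 12.57 and 12.48 in sham. Its sham samples lay within 1 log2 unit of each other, and the fall was 83.4-fold (adjusted p = 7.75e-07). CCL21, a chemokine of lymphatic endothelium that guides T cells and dendritic cells, read 6.70 and 6.95 on day 1 and 12.96, 13.12, 12.58 and 12.70 in sham, a 64.7-fold fall (adjusted p = 3.57e-07). The remaining 5 were LOC100328910 (-7.47), OLFML1 (-7.20), TSPAN7 (-6.44), the monooxygenase FMO2 (-6.09) and TIMP4, an inhibitor of matrix metalloproteinases (-5.67). For TIMP4 the sham pairs differed by about 2 log2 units.

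**Figure D2:**
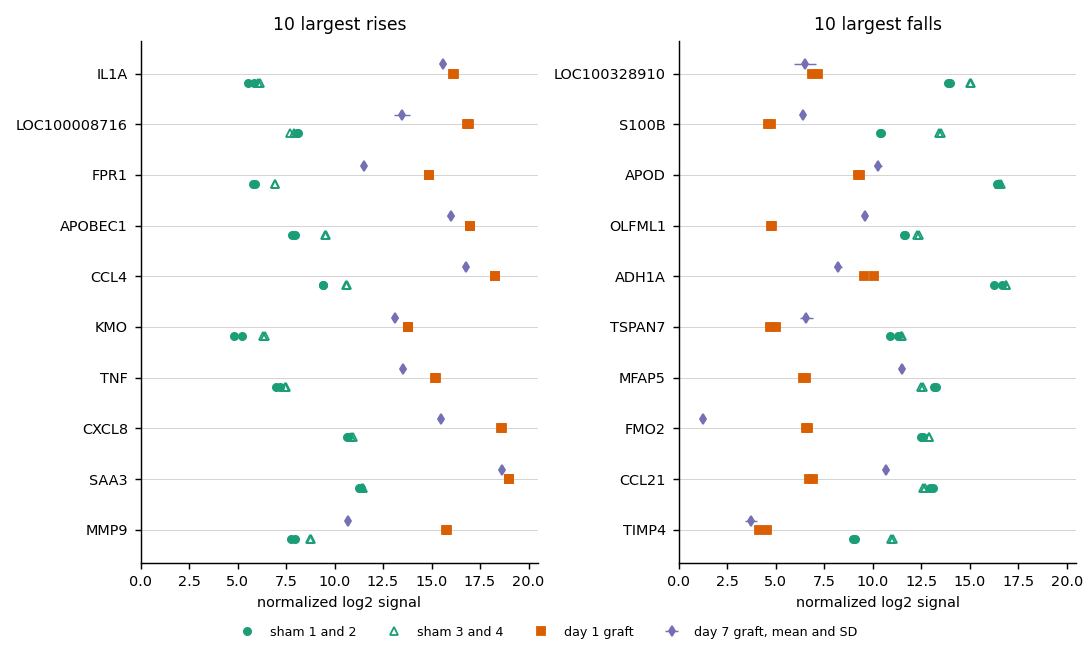
Normalized log2 signal (x axis) in each sham sample, each day 1 sample and, as mean and SD of 2 samples, day 7. Shown are the 10 largest rises (left) and the 10 largest falls (right) among named genes well above background on every day 1 and sham array. Genes were chosen so that the squares for day 1 lie clear of all sham samples. For MMP9, CXCL8 and FPR1 the day 7 diamond lies between day 1 and sham.

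Interleukin 1 alpha and beta are signals released early after injury, and the interleukin 1 receptor antagonist blocks them. Of the 6 tested members of the interleukin 1 family, 5 rose and 1 fell, with a median log2 fold change of 4.98 against 0.25 over all genes. IL1B read 18.57 and 18.51 on day 1 and 10.93, 10.75, 12.58 and 12.62 in sham, a rise of 6.82 ± 0.58 (adjusted p = 3.10e-05). Its antagonist IL1RN read 18.67 and 18.57 on day 1 and 11.93, 11.90, 13.17 and 13.16 in sham and rose by 6.08 ± 0.42 (adjusted p = 1.04e-05). CASP1, the protease that cleaves the interleukin 1 beta precursor, rose by 3.89. IL18R1, a chain of the interleukin 18 receptor, rose by 2.38 (2 of its 3 probes). IL18 itself went the other way. It read 13.04 and 13.21 on day 1 and 16.04, 16.08, 15.67 and 15.46 in sham, a fall of 2.69 ± 0.19 on the log2 scale (adjusted p = 1.25e-05), and all 7 of its probes fell.

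Of 16 other cytokines tested, 12 rose, none fell and 4 did not pass the test, with a median of 1.56. IFNG, the T and NK cell interferon, read 15.72 and 15.68 on day 1 and 9.18, 9.14, 10.43 and 10.48 in sham and rose by 5.90 ± 0.43 (adjusted p = 1.48e-05), although 1 of its 2 probes was not called. IL6, which drives the acute phase response, read 15.39 and 15.48 on day 1 and 12.07, 12.04, 8.19 and 8.17 in sham. Sham replicates 1 and 2 were thus far above 3 and 4, and the rise of 5.32 carried an SE of 1.27 (adjusted p = 0.00661). IL10, an inhibitory cytokine, read 8.15 and 8.19 on day 1 and 4.57, 4.57, 4.93 and 4.84 in sham and rose by 3.44 (adjusted p = 9.90e-07). IL4, a type 2 cytokine, rose by 4.63 ± 0.75, the B cell survival factor TNFSF13B by 1.84, IL15 by 1.71, CD40LG by 1.63 (1 of its 2 probes), IL17A by 1.49 and the colony stimulating factor CSF2 by 1.37. LTA (1.31) and TNFSF8 (1.05) passed narrowly, each losing its call under several other settings. IL2 (0.94), IL9 (0.92), LIF (0.02) and TNFSF4 (-0.16) were not called. Of the receptors with a named probe, the death receptor FAS rose by 1.54 and IL13RA2, a decoy receptor for interleukin 13, fell by 1.11 on the log2 scale.

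**Figure D3:**
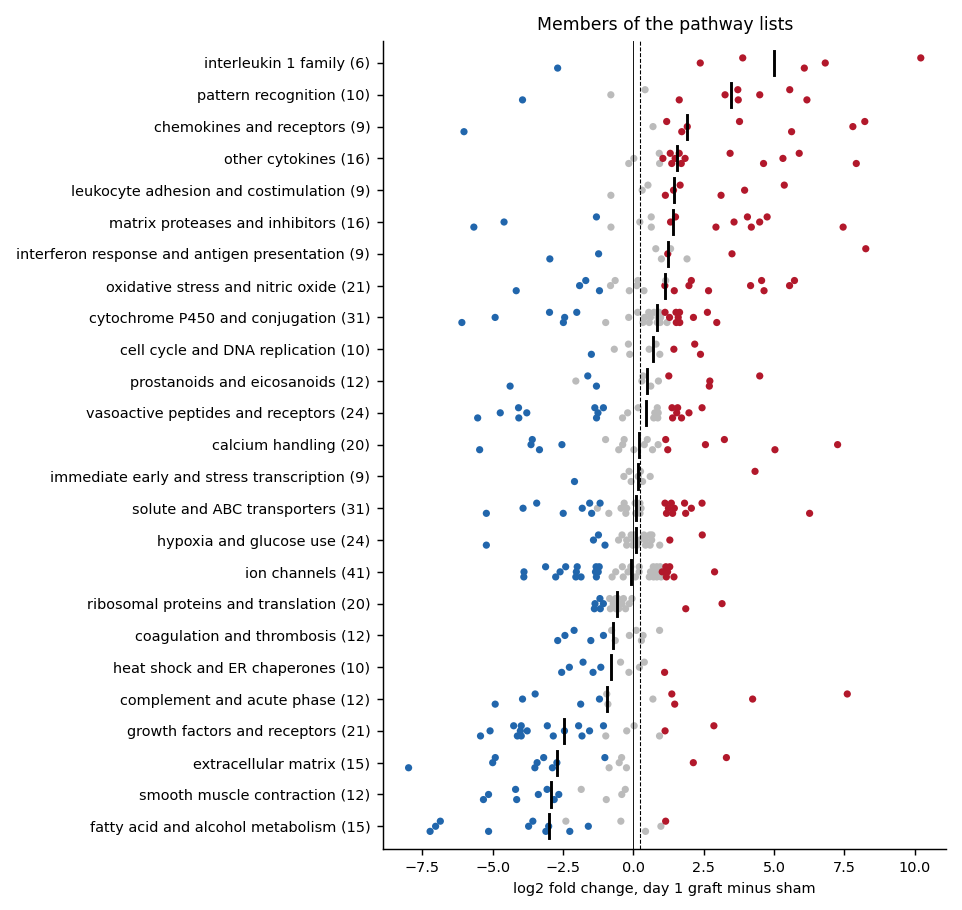
Log2 fold change of day 1 over sham (x axis) for each tested member of the pathway lists with at least 4 members, with the number of members in parentheses. Red and blue points were called higher and lower, grey points were not called, black bars are list medians and the dashed line is the median of all genes at 0.25, and the interleukin 1 family is highest at 4.98 with fatty acid and alcohol metabolism lowest at -3.01.

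Of 9 chemokines and receptors tested, 7 rose and 1 fell, with a median of 1.92. CCL2, the chemokine that calls in monocytes, read 17.97 and 18.01 on day 1 and 12.27, 12.28, 12.47 and 12.44 in sham and rose by 5.63 ± 0.10 (adjusted p = 1.09e-07). The 2 receptors for CXCL8 rose as well. CXCR1 read 13.27 and 13.27 on day 1 and 9.47, 9.71, 9.28 and 9.52 in sham, a rise of 3.78 ± 0.14, and CXCR2 read 9.51 and 9.27 on day 1 against 7.51, 7.71, 7.68 and 7.77 in sham, a rise of 1.72 ± 0.13. CX3CR1, the fractalkine receptor of monocytes, rose by 1.92 and CCR1 by 1.19. The fall was that of CCL21, described above.

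All 10 tested neutrophil markers rose, with a median of 4.59. CAMP, the granule peptide cathelicidin, read 13.47 and 13.47 on day 1 and 6.96, 6.99, 6.85 and 6.70 in sham, a rise of 6.60 ± 0.11 (adjusted p = 9.21e-08). S100A8 and S100A9 form calprotectin, the most abundant protein of the neutrophil cytosol. S100A9 read 18.07 and 18.09 on day 1 and 11.84, 11.87, 13.31 and 13.23 in sham and rose by 5.52 ± 0.47, and S100A8 read 18.61 and 18.62 on day 1 against 12.49, 12.64, 14.12 and 13.98 in sham and rose by 5.30 ± 0.49. BPI, a granule protein that kills Gram-negative bacteria, rose by 3.88 and the water and glycerol channel AQP9 by 1.82. In bulk tissue, more cells of a type and more RNA per cell cannot be told apart.

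Of 7 monocyte and macrophage markers tested, 6 rose and 1 did not pass, with a median of 4.06. MSR1, a scavenger receptor, read 15.25 and 15.33 on day 1 and 8.80, 8.76, 9.42 and 9.50 in sham, a rise of 6.17 ± 0.24 (adjusted p = 8.93e-07). CD14, the coreceptor for bacterial lipopolysaccharide, read 16.59 and 16.60 on day 1 and 10.53, 10.46, 11.52 and 11.63 in sham, a rise of 5.56 ± 0.37 (adjusted p = 9.68e-06). MMP12, the macrophage elastase, read 12.06 and 11.95 on day 1 and 6.93, 6.90, 9.03 and 8.95 in sham, a rise of 4.06 ± 0.68. The acid phosphatase ACP5 rose by 3.19 and the oxidase subunit CYBB by 2.67. FCGR1A, the high affinity receptor for immunoglobulin G, was not called (-0.53, well above background on 2 of 6 day 1 arrays).

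Of 10 genes of pattern recognition, which sense microbial products and molecules of damaged cells, 7 rose and 1 fell, with a median of 3.49. TLR4 read 14.90 and 14.98 on day 1 and 11.04, 11.14, 11.37 and 11.37 in sham, a rise of 3.72 ± 0.13 (adjusted p = 5.76e-07). Its partner LY96 rose by 3.26 and TLR2, which binds bacterial lipoproteins, by 4.49 (2 of its 3 probes). The lectin-like receptor for oxidized lipoprotein OLR1 rose by 3.73 and the cytosolic sensor NOD1 by 1.63. TLR3, a sensor of double-stranded RNA, was not called (-0.80, with 1 of its 2 probes lower). Neither was TNFAIP6 (0.42), a gene stimulated by tumour necrosis factor that the list includes although it is not a sensor. LBP, which hands lipopolysaccharide to CD14, was not well above background on any day 1 array and fell at least 12.3-fold (adjusted p = 0.0011). In such a bound the dim group stands at the lowest signal of any probe well above background on its arrays, or at the gene's own signal where that is higher. An adjusted p printed beside a bound is that of the unbounded fold change, which uses the gene's own signal near background.

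Of 9 genes of leukocyte adhesion and costimulation, 6 rose and none fell (median 1.43). CD86 read 10.60 and 10.59 on day 1 and 6.28, 6.12, 7.10 and 7.04 in sham, and CD80 read 8.54 and 8.69 on day 1 against 5.27, 5.75, 5.63 and 5.34 in sham. These ligands, by which antigen-presenting cells stimulate T cells, rose by 3.96 and 3.12. CTLA4, their inhibitory receptor, rose by 1.66 against 3 sham samples, since the spot of sham replicate 2 carried an outlier flag. CD226 rose by 1.43 (1 of its 2 probes) and F11R, a junctional adhesion molecule, by 1.14. The endothelial adhesion molecules of the list were not called: VCAM1 read 13.10 and 13.17 on day 1 and 13.75, 13.75, 14.07 and 14.16 in sham (-0.80, with 3 of its 5 probes lower), and SELE read 5.54 and 5.42 on day 1 against 4.98, 4.81, 5.16 and 4.88 in sham (0.52).

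Of 6 T and NK cell markers, 3 rose. CD5 read 9.90 and 9.95 on day 1 and 6.89, 7.01, 7.10 and 7.13 in sham, a rise of 2.90 ± 0.10, and CD4 read 7.69 and 7.54 on day 1 against 4.88, 4.80, 4.98 and 5.28 in sham, a rise of 2.63 ± 0.16. CD4 is also carried by monocytes. CD3E, a chain of the T cell receptor complex, differed by 0.52 and was not called, and neither were CD28 (0.32) and CD247 (-0.50). All 3 tested genes of the B and plasma cell list rose, but PIGR is also a gene of epithelium and RAG2 one of immature lymphocytes. MS4A1, the B cell antigen CD20, read 7.85 and 7.43 on day 1 and 4.84, 5.33, 5.62 and 5.64 in sham (rise 2.28 ± 0.24). PIGR, the epithelial transporter of immunoglobulins, rose by 3.71 ± 0.79. RAG2, the recombinase subunit of immature lymphocytes, rose by 1.73 on 1 of its 2 probes, and its call was lost in 3 of 20 other settings. Of 9 genes of interferon response and antigen presentation, 3 rose and 2 fell. RLA-DMA, which loads peptides onto class II molecules, read 16.35 and 16.32 on day 1 and 12.75, 12.86, 12.77 and 12.94 in sham, a rise of 3.51 ± 0.09 (adjusted p = 2.36e-07). EIF2AK2, a kinase activated by double-stranded RNA, rose by 1.23. CD1D, which presents lipids to NKT cells, fell by 2.97 on the log2 scale, from 9.60 to 10.04 in sham to 6.88 and 6.82. OASL (1.91) was not called, because sham replicates 1 and 2 read 5.0 and 4.76 while 3 and 4 read 7.5 and 7.54.

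Of 16 matrix proteases and inhibitors tested, 9 rose and 3 fell, with a median of 1.41. One of the 9, MMP13, was not well above background in either group. Besides MMP9 and MMP12, the stromelysin MMP3 read 10.21 and 10.12 on day 1 and 5.62, 5.74, 5.12 and 5.15 in sham, a rise of 4.76 ± 0.24 (adjusted p = 2.62e-06). MMP10, a related stromelysin, read 10.15 and 10.34 on day 1 and 4.69, 5.02, 6.62 and 6.68 in sham, a rise of 4.49 ± 0.60. The inhibitors moved apart. TIMP1 read 16.72 and 16.65 on day 1 and 13.95, 13.78, 13.65 and 13.60 in sham and rose by 2.94 ± 0.12 (adjusted p = 1.13e-06), TIMP3 was not called (-0.79) and TIMP4 fell. SERPINB2, an inhibitor of plasminogen activators, rose by 4.20, the aspartic protease CTSE, with sham pairs 3 log2 units apart, by 3.58 and the collagen-degrading cathepsin CTSK by 1.32. MMP2, the gelatinase of mesenchymal cells, read 9.22 and 9.34 on day 1 and 13.61, 13.73, 14.06 and 14.09 in sham. It fell by 4.59 ± 0.16 on the log2 scale (adjusted p = 6.16e-07), and all 6 of its probes fell, from -7.06 to -4.59. PLAT, the tissue plasminogen activator, fell by 1.31 on that scale, and PLAU (0.64, with 1 of its 3 probes lower) was not called. The interstitial collagenase MMP1 was not called on its brightest probe (0.23), whereas its other 2 probes rose, by up to 6.25.

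Of 21 genes of oxidants, iron and nitric oxide, 10 rose and 4 fell (median 1.12). The phagocyte NADPH oxidase makes superoxide. Its subunit NCF1 read 12.28 and 12.30 on day 1 and 6.04, 6.12, 7.07 and 7.02 in sham, a rise of 5.73 ± 0.33 (adjusted p = 4.33e-06). NCF4 rose by 4.56 and CYBA by 4.17, beside CYBB above. ARG1, which competes with nitric oxide synthase for arginine, read 12.24 and 12.30 on day 1 and 5.39, 4.85, 8.26 and 8.36 in sham, a rise of 5.55 ± 1.05. XDH, the purine oxidase, read 8.53 and 8.57 on day 1 and 4.13, 3.58, 4.12 and 3.79 in sham, a rise of 4.65 ± 0.18 (adjusted p = 8.56e-07). GCLC, the first enzyme of glutathione synthesis, rose by 1.46 and the ferritin light chain FTL by 1.12. TF, the iron carrier transferrin, read 12.92 and 12.92 on day 1 and 16.83, 16.75, 17.36 and 17.39 in sham and fell by 4.16 ± 0.21 on the log2 scale (adjusted p = 2.67e-06). AOX1 fell by 1.69, and SOD3, the extracellular superoxide dismutase, was not well above background on any day 1 array and fell at least 1.9-fold. NQO1 (-0.64), GPX1 (0.16) and HMOX2 (0.12) were not called.

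Collagens I, V, VIII and XIV, the small proteoglycans decorin, lumican, biglycan and osteoglycin, and periostin make up much of the scaffold of a vein. Of 15 matrix genes tested, 9 fell and 2 rose, with a median of -2.72 against 0.25 over all genes. COL1A2 read 16.29 and 16.33 on day 1 and 19.04, 18.95, 19.03 and 19.07 in sham, among the brightest genes of the vein. It fell by 2.72 ± 0.10 on the log2 scale (adjusted p = 7.05e-07). All 11 of its probes fell, with log2 fold changes from -5.48 to -2.72, so that the brightest probe gave the smallest fall. COL5A2 read 13.61 and 13.62 on day 1 and 17.03, 16.97, 16.63 and 16.58 in sham, a log2 fold change of -3.18 ± 0.15 (adjusted p = 2.01e-06). COL14A1 read 4.20 and 3.84 on day 1, where 4 of 6 arrays were well above background, and 12.21, 12.46, 11.79 and 11.56 in sham. Its log2 fold change of -7.99 ± 0.27 was the largest fall of the list.

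Of 5 small proteoglycans, 4 fell and PRELP was not called (-0.41). LUM read 14.35 and 14.40 on day 1 and 17.72, 17.90, 17.94 and 17.92 in sham (-3.50 ± 0.13), DCN read 15.24 and 15.11 on day 1 against 17.95, 18.19, 18.09 and 17.98 in sham (-2.87 ± 0.11), and OGN read 14.80 and 14.90 on day 1 against 18.34, 18.29, 18.17 and 18.26 in sham (-3.42 ± 0.10). For LUM, DCN and OGN these brightest probes gave the smallest falls, and the largest falls among their probes were -5.18, -6.42 and -6.03. BGN read 4.75 and 4.61 on day 1 and 10.48, 10.52, 8.84 and 8.88 in sham (-5.0 ± 0.54). POSTN, a matricellular protein of activated fibroblasts, read 9.34 and 9.36 on day 1 and 15.22, 15.22, 13.22 and 13.37 in sham (-4.90 ± 0.64, adjusted p = 3.0e-04), with the sham pairs about 2 log2 units apart and both above day 1. Fibronectin FN1 (-0.50, with 6 of its 11 probes lower), versican VCAN (-0.24, with 1 of its 6 probes higher) and the hyaluronan synthase HAS2 (-0.86) were not called. SPP1, osteopontin, which macrophages and injured smooth muscle cells secrete, read 19.20 and 19.20 on day 1 and 16.87, 16.80, 14.89 and 14.99 in sham. It rose by 3.31 ± 0.65 (adjusted p = 0.00258). COL2A1 also rose on its brightest probe (2.13), but of its 6 probes 2 rose, 1 fell and 3 were not called. All 4 tested fibroblast markers, COL1A2, DCN, LUM and MFAP5, fell.

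**Figure D4:**
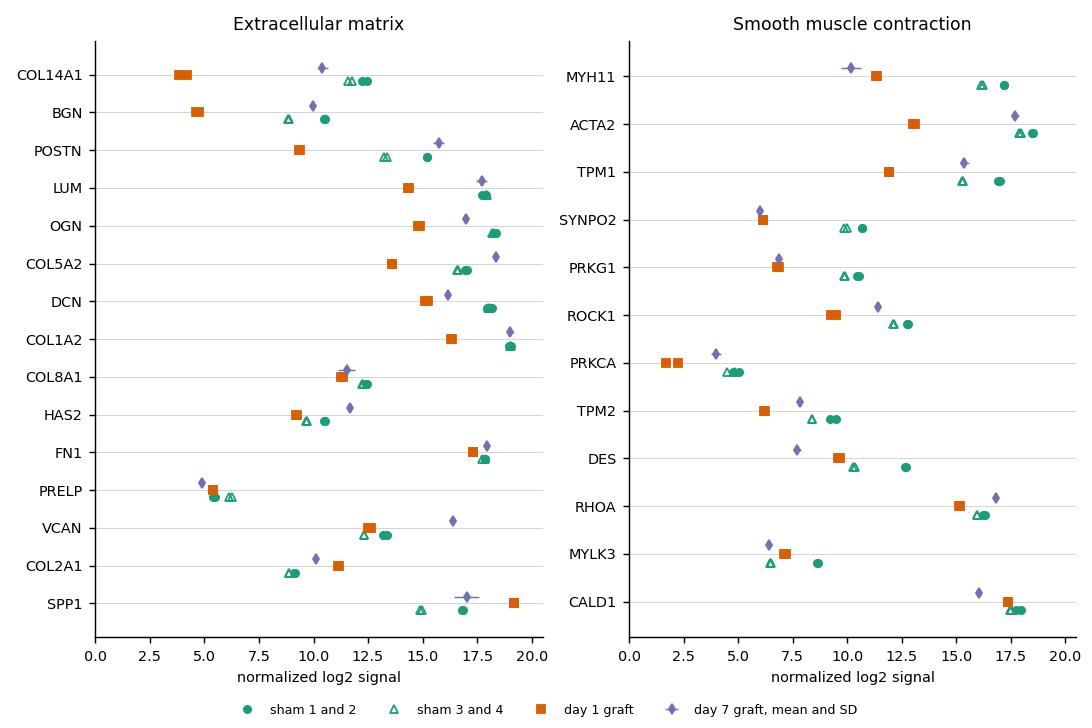
Normalized log2 signal (x axis) of the tested extracellular matrix genes (left) and smooth muscle contraction genes (right) in each sham sample, each day 1 sample and, as mean and SD of 2 samples, day 7. COL1A2, LUM, POSTN and ACTA2 lie low on day 1 and near sham on day 7, while MYH11, SYNPO2 and PRKG1 lie low on both days.

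The contractile apparatus of medial smooth muscle is built of smooth muscle actin, myosin heavy chain and tropomyosin. Of 12 genes of contraction tested, 8 fell and none rose (median -2.94), and of 7 smooth muscle markers, 5 fell and none rose (median -4.14). ACTA2, smooth muscle alpha actin, read 13.09 and 13.02 on day 1 and 18.47, 18.50, 17.89 and 17.94 in sham, a fall of 35.4-fold (adjusted p = 1.11e-06). MYH11, the smooth muscle myosin heavy chain, read 11.33 and 11.36 on day 1 and 17.18, 17.19, 16.11 and 16.20 in sham, a fall of 40.1-fold (adjusted p = 1.23e-05). TPM1 read 11.93 and 11.93 on day 1 and 16.90, 16.99, 15.31 and 15.26 in sham (-4.18 ± 0.55), and all 7 of its probes fell. SYNPO2 fell by 4.14, TPM2 by 2.65, the kinase ROCK1, which keeps myosin phosphorylated, by 3.06 and PRKG1, the cyclic GMP kinase that relaxes the muscle, by 3.37 on the log2 scale. PRKCA was not well above background on any day 1 array and fell at least 2.22-fold. CALD1 read 17.37 and 17.38 on day 1 and 17.72, 17.96, 17.49 and 17.47 in sham and was not called (-0.28). DES, the intermediate filament desmin, read 9.68 and 9.59 on day 1 and 12.70, 12.64, 10.33 and 10.27 in sham and was not called either (-1.85 ± 0.78). Its other probe fell by 6.84 on the log2 scale, and DES was called lower in 7 of 20 other settings.

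Of 20 genes of calcium handling, 6 rose and 5 fell. PLN, which restrains the calcium pump of smooth and cardiac muscle, read 8.24 and 8.47 on day 1 and 13.90, 13.84, 13.71 and 13.82 in sham and fell by 5.46 ± 0.11 on the log2 scale (adjusted p = 1.21e-07). The calcium store protein CASQ2 fell by 3.59, the release channels RYR2 and RYR3 by 3.63 and 3.33 and the entry channel TRPC1 by 2.54. The rises were those of striated muscle store genes, ATP2A1 (7.26), CASQ1 (5.03), HRC (3.24), SLN (2.56) and TRDN (1.23), and the plasma membrane pump ATP2B1 (1.15). ATP2A2, the pump of smooth muscle, was not called (0.88, with 1 of its 5 probes higher).

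Of 41 ion channel genes, 15 fell, 7 rose and 19 were not called (median -0.09). Channels by which vascular smooth muscle sets its tone were among those that fell. KCNJ8, the pore of the ATP-sensitive potassium channel, read 9.14 and 9.14 on day 1 and 13.07, 12.96, 12.98 and 13.10 in sham (-3.89 ± 0.09, adjusted p = 1.55e-07), and its sulphonylurea receptor ABCC9 fell by 1.99 on the log2 scale. KCNMA1 and KCNMB1, the subunits of the large-conductance calcium-activated channel, fell by 2.60 and 2.40, KCNA5 by 3.12 and KCNH2 by 2.76. CACNA1C, the pore of the L-type calcium channel, was not well above background on any day 1 array and fell at least 7.13-fold (adjusted p = 1.14e-06). Its beta subunits fell as well, CACNB1 (-1.34), CACNB2 (-1.21, and down to -5.46 on another probe) and CACNB3 (-1.86, with its other probe not called). The largest rise was that of the pacemaker channel HCN4, which read 7.83 and 8.0 on day 1 and 4.82, 5.78, 4.18 and 5.34 in sham (2.89 ± 0.40). The other rises, of KCNJ2, KCNA1, KCNJ11, KCNA3, SCNN1A and SCNN1G, were at most 1.45. The normexp background correction left 1 channel called higher and 10 lower, and scaling to the 75th percentile gave 16 higher and 13 lower.

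Of 21 growth factors and receptors, 15 fell and 2 rose, with a median of -2.45. IGF1 read 6.68 and 6.69 on day 1 and 10.23, 10.13, 11.64 and 11.72 in sham (-4.25 ± 0.50, adjusted p = 1.67e-04), and all 5 of its probes fell. PDGFD, a growth factor for smooth muscle cells, read 5.76 and 5.74 on day 1 and 9.86, 9.71, 9.68 and 9.67 in sham (-3.98 ± 0.10, adjusted p = 1.87e-07). The growth hormone receptor GHR fell by 3.98, the prolactin receptor PRLR by 4.01 and SFRP2, which binds Wnt ligands, by 2.84. Of the bone morphogenetic proteins, BMP2 fell by 1.82, BMP4 by 3.77 and BMP7 by 4.12. Genes of transforming growth factor beta moved both ways. TGFB2 fell by 1.55, TGFB3 was not well above background on any day 1 array and fell at least 7.73-fold, the receptor TGFBR2 fell by 1.94, and the receptor TGFBR1 read 8.01 and 8.07 on day 1 and 4.94, 4.61, 5.70 and 5.44 in sham and rose by 2.86 ± 0.29. HGF, hepatocyte growth factor, rose by 1.13 (2 of its 3 probes). Its receptor MET was not well above background on any day 1 array and fell at least 10.3-fold (adjusted p = 1.55e-07). FGF2 (-0.23), FGF7 (-0.98, with 5 of its 6 probes lower) and EPO (0.03) were not called.

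Of 5 endothelial markers tested, 2 fell and 1 rose. NOS3, which makes the nitric oxide of endothelium, read 7.59 and 7.54 on day 1 and 9.06, 8.87, 8.82 and 8.74 in sham (-1.31 ± 0.11, adjusted p = 3.35e-05). KDR, a receptor for vascular endothelial growth factor, was not well above background on any day 1 array and fell at least 2.05-fold. EDN1, the vasoconstrictor endothelin 1, read 8.07 and 8.06 on day 1 and 5.55, 5.96, 5.50 and 5.46 in sham and rose by 2.44 ± 0.16 (adjusted p = 9.74e-06). THBD, thrombomodulin, was not called and its values lay close together, 12.92 and 12.94 on day 1 and 13.13, 13.07, 13.03 and 13.05 in sham (-0.14).

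Of 24 vasoactive peptides and receptors, 9 fell and 7 rose. AGTR1, the type 1 angiotensin receptor, read 7.81 and 7.73 on day 1 and 13.31, 13.34, 13.23 and 13.32 in sham, a 46.2-fold fall (adjusted p = 1.21e-07). NPY1R, the vasoconstrictor receptor for neuropeptide Y, read 5.18 and 5.21 on day 1 and 10.19, 10.10, 9.70 and 9.69 in sham (-4.73 ± 0.17, adjusted p = 6.82e-07). PTH1R fell by 4.07, the enkephalin precursor PENK by 4.08 and the endothelin B receptor EDNRB by 1.37 on the log2 scale. BDKRB1, the bradykinin receptor that appears in inflamed vessels, read 12.34 and 12.36 on day 1 and 10.33, 10.37, 10.45 and 10.32 in sham and rose by 1.98 ± 0.09 (adjusted p = 1.47e-06). The adenosine receptors ADORA3 and ADORA2B rose by 1.58 (2 of its 3 probes) and 1.38 (1 of its 2 probes). The endothelin A receptor EDNRA rose on its brightest probe (1.54) and fell on its other 2 probes. Converting enzyme ACE was not called (-0.20).

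Of 12 genes of prostanoids and eicosanoids, 4 rose and 3 fell. ALOX5AP, which hands arachidonic acid to 5-lipoxygenase, read 15.40 and 15.44 on day 1 and 10.73, 10.64, 11.18 and 11.16 in sham (4.49 ± 0.20, adjusted p = 1.47e-06), and LTA4H, which makes leukotriene B4, rose by 1.26. The prostaglandin receptors PTGER4 and PTGDR rose by 2.72 and 2.70. PTGS2, the inducible cyclooxygenase, read 17.06 and 17.20 on day 1 and 16.14, 16.05, 16.37 and 16.39 in sham and missed the fold threshold (0.89, with 1 of its 3 probes higher), while the constitutive PTGS1 fell by 1.31. PTGDS and PTGR1 fell by 1.62 and 4.38. PTGER2, a receptor for prostaglandin E2, was not called on its brightest probe (0.62), whereas its other 5 probes fell.

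Of 12 genes of coagulation and thrombosis, 5 fell and none rose (median -0.70). F3, the tissue factor that starts clotting, read 12.12 and 12.10 on day 1 and 15.02, 14.97, 13.94 and 14.23 in sham (-2.43 ± 0.32, adjusted p = 3.19e-04). TFPI, which inhibits it, read 9.98 and 10.03 on day 1 and 11.73, 11.68, 11.38 and 11.27 in sham (-1.51 ± 0.15). Protein S, PROS1, fell by 2.10 and annexin ANXA5 by 1.06. Thrombospondin THBS1 fell by 2.69 on its brightest probe, with 3 of 4 probes lower and 1 higher. Of the erythroid and platelet markers, the platelet integrin ITGA2B read 11.90 and 11.90 on day 1 and 7.49, 7.51, 7.74 and 7.68 in sham and rose by 4.29 ± 0.11 (adjusted p = 2.10e-07). The globin HBA was not called on its brightest probe (0.77), but 4 of its 7 probes rose, by up to 3.96, and HBB2 (0.07) was not called.

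Of 15 genes of fatty acid and alcohol metabolism, 10 fell and 1 rose, and the median of -3.01 was the lowest of the pathway lists. The list shares ADIPOQ, LEP, LPL and PPARG with the adipocyte markers. Of these, ADIPOQ and PPARG fell, and the sham pairs were almost 7 log2 units apart in LPL, so that the sham samples themselves differed in a transcript of fat. The part of fat in the falls of the list was not tested. SCARB1, the receptor for high density lipoprotein, read 12.27 and 12.25 on day 1 and 14.46, 14.67, 16.08 and 16.26 in sham (-3.11 ± 0.54). APOE was not well above background on any day 1 array and fell at least 15.5-fold (adjusted p = 5.37e-06). The phospholipid transfer protein PLTP fell by 3.57, LCAT by 3.72 and ALDH1A1, a retinal dehydrogenase, by 3.01 on the log2 scale. The flavin monooxygenases FMO1 (-4.91) and FMO2, the amine oxidase MAOA (-2.98 on its brightest probe, with 3 of 4 probes lower -0.26 on the other and the call lost in 6 of 20 other settings) and the sterol hydroxylase CYP27A1 (-2.48) led the falls in the list of cytochrome P450 and conjugation, in which 10 of 31 rose and 6 fell. The rises there were smaller, led by CYP4A5 (2.97) and PON3 (2.63), and 21 rises were called after scaling to the 75th percentile and 6 after normexp.

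Of 24 genes of hypoxia and glucose use, 2 rose, 4 fell and 18 were not called, with a median of 0.08. SLC2A4, the insulin-regulated glucose transporter, read 9.55 and 9.56 on day 1 and 14.22, 14.12, 15.30 and 15.46 in sham, a 37.3-fold fall (adjusted p = 1.99e-05). PKM, a glycolytic enzyme, read 13.45 and 13.45 on day 1 and 11.10, 11.06, 10.96 and 10.88 in sham and rose by 2.45 ± 0.10 (adjusted p = 1.26e-06). HIF1A read 14.19 and 14.10 on day 1 and 14.27, 14.31, 14.15 and 14.16 in sham and was not called (-0.08), and neither were LDHA (0.60), GAPDH (0.66) and SLC2A1 (-0.24). Among 31 transporters, 11 rose and 8 fell. SLC7A5, which carries large neutral amino acids into activated cells, read 16.30 and 16.13 on day 1 and 9.40, 9.33, 10.42 and 10.64 in sham, a 77-fold rise (adjusted p = 7.03e-06), and SLC22A6 rose by 2.06.

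Of 12 genes of complement and the acute phase, 4 rose and 5 fell. The rises after SAA3 were ORM1 (4.24 ± 0.78), C9 (1.47) and C8A (1.37). C1S, the protease of the classical pathway, read 11.23 and 11.26 on day 1 and 16.13, 16.01, 16.19 and 16.29 in sham (-4.91 ± 0.12, adjusted p = 1.98e-07). CD59, which shields cells from complement, read 10.01 and 9.97 on day 1 and 13.46, 13.42, 13.49 and 13.55 in sham (-3.49 ± 0.09), and all 10 of its probes fell. CRP fell on 1 probe (-1.87) and rose on the other.

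Of 9 immediate early and stress transcription genes, 7 were not called. FOS read 13.64 and 13.57 on day 1 and 15.88, 15.93, 15.43 and 15.53 in sham and fell by 2.09 ± 0.17 on the log2 scale (adjusted p = 2.25e-05), and JUN was not called (-0.15). KLF5 rose on its brightest probe (4.33), whereas its other 6 probes were not called. Of 10 heat shock and chaperone genes, 5 fell and 1 rose. CRYAB, a small heat shock protein of muscle and nerve, fell by 2.55, the disulphide isomerases PDIA3 and P4HB by 2.27 and 1.79, and HSP90AB1 by 1.15. Of 10 cell cycle genes, 3 rose, 1 fell and 6 were not called. HMGB2 rose by 2.39, the phosphatase CDC25A by 2.18 (2 of its 4 probes) and CDK1 by 1.44 (2 of its 3 probes), and CDK2 fell by 1.49. CCNB2 (-0.17, with 1 of its 3 probes higher), BUB3 (-0.13) and MAD2L1 (0.94, with 2 of its 4 probes higher) were not called. Of 20 ribosomal and translation genes, 13 were not called, and the median was -0.59. The falls were small, EEF1D at -1.38, RPL4 at -1.36, RPS9 at -1.19, EIF4G1 at -1.17 and EEF1G at -1.06. EIF4E, which binds the messenger cap, rose by 1.86, and EEF1A2, the elongation factor form of muscle and nerve, by 3.15.

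Markers of other tissues moved as well. Veins carry nerve fibres and fat, and all 4 nerve and Schwann cell markers fell (median -3.42). PMP22, a myelin protein of peripheral nerve, read 10.88 and 10.84 on day 1 and 14.06, 14.25, 13.44 and 13.42 in sham (-2.94 ± 0.26). Of 5 adipocyte markers, 2 fell and 1, the uncoupling protein UCP1 of brown fat, rose (1.67). ADIPOQ, the fat hormone adiponectin, was not well above background on any day 1 array, while the sham samples read 8.66, 8.60, 10.11 and 10.07, and it fell at least 53.3-fold (adjusted p = 1.09e-05). LPL, lipoprotein lipase, read 11.11 and 11.08 on day 1 and 10.03, 10.13, 16.92 and 16.88 in sham. The sham pairs were almost 7 log2 units apart with day 1 between them, and LPL was not called (-2.40 ± 2.22).

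Genes of fast skeletal muscle were among the rises. Of 14 skeletal muscle markers, 7 rose, 2 fell and 5 were not called, with a median of 0.86. Those not called were RYR1 (0.68), CACNG1 (0.61), MYOZ1 (0.51), MYOG (-0.21) and ENO3 (-0.52). ATP2A1, the calcium pump of fast skeletal fibres, read 12.08 and 12.11 on day 1 and 4.20, 4.46, 5.50 and 5.20 in sham, a 153-fold rise (adjusted p = 2.20e-06), and all 9 of its probes rose. MYH1, a fast skeletal myosin heavy chain, read 10.95 on average on day 1 and 6.01, 5.91, 5.69 and 5.60 in sham, a 35.6-fold rise (adjusted p = 2.30e-07). MYL1, a fast myosin light chain, read 9.06 and 8.96 on day 1 and 3.82, 3.64, 3.63 and 3.83 in sham, a 38.9-fold rise (adjusted p = 2.08e-06). The fast troponins TNNC2 and TNNI2 rose by 3.70 and 3.37 and CKM, muscle creatine kinase, by 1.03, while PYGM (-1.01) and the slow troponin TNNC1 (-2.19) fell. The calls of CKM, PYGM and TNNC1 were lost in 6 of 19, 8 of 20 and 6 of 20 other settings. Both day 1 samples carried these levels. Vein is not known to make fast skeletal myosin. The source of these transcripts was not tested, and neither was their part in the other day 1 results.

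**Figure D5:**
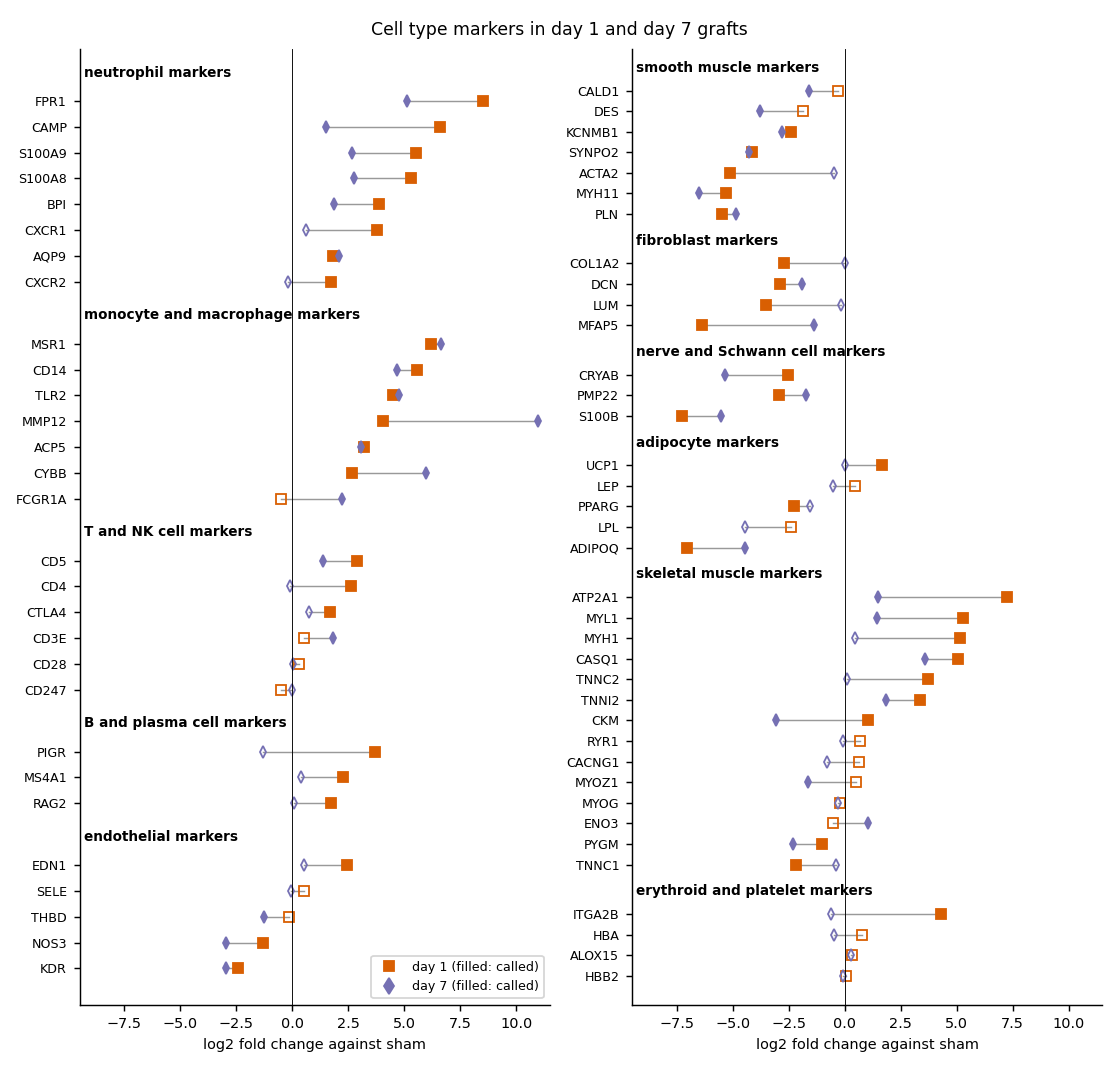
Log2 fold change against sham (x axis) of cell type markers on day 1 (squares) and day 7 (diamonds), filled where called. The neutrophil markers plotted all lie to the right on day 1 with most day 7 diamonds closer to 0, the fibroblast and nerve markers plotted all lie to the left on day 1, and MYH1, MYL1 and ATP2A1 lie at or above 5.15 on day 1 and at or below 1.49 on day 7.

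Grafts of day 1 and day 7 share the sham samples, so that the difference was tested as day 7 minus day 1 in the same model. Over all genes this contrast called 19.3% higher and 22.2% lower on day 7. Of the 445 genes of the lists and of the leading rises and falls, 132 were lower on day 7 than on day 1 and 97 were higher.

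Of the 10 neutrophil markers, 8 were lower on day 7 than on day 1 and none was higher, and their median against sham was 2.06 on day 7 and 4.59 on day 1. CAMP differed by -5.12 between the days (adjusted p = 1.46e-06), CXCR1 by -3.17, FPR1 by -3.35 and S100A9 by -2.85. MMP9 was 7.46 above sham on day 1 and 2.40 on day 7 (difference -5.05, adjusted p = 2.50e-05), and CXCL8 was 7.80 and 4.68 (difference -3.12, adjusted p = 4.87e-06). IL10 was 3.44 above sham on day 1 and -0.20 on day 7 (difference -3.64, adjusted p = 4.71e-06), and NCF1 was 5.73 and 1.91 (difference -3.82).

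Of the 6 interleukin 1 family genes, IL18R1 (1.72) and IL18 (1.33) were higher on day 7 than on day 1 and none was lower. IL1A was 10.22 above sham on day 1 and 9.70 on day 7, and the difference of -0.52 was not called (adjusted p = 0.0676). IL1B differed by -0.09 (adjusted p = 0.913) and IL1RN by -0.24 (adjusted p = 0.682). Of the macrophage markers, 3 of 7 were higher on day 7 and none was lower. MMP12 was 4.06 above sham on day 1 and 10.95 on day 7 (difference 6.89, adjusted p = 2.45e-04), CYBB was 2.67 and 5.97 (difference 3.30) and FCGR1A was -0.53 and 2.23 (difference 2.76). ARG1 was 5.55 and 10.05 (difference 4.50, adjusted p = 0.0143) and XDH was 4.65 and 8.67 (difference 4.02, adjusted p = 7.88e-06).

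Of the 15 matrix genes, 9 were higher on day 7 and 2 were lower, and the median against sham was -2.72 on day 1 and 0.13 on day 7. POSTN was -4.90 against sham on day 1 and 1.47 on day 7 (difference 6.38, adjusted p = 2.58e-04), COL14A1 was -7.99 and -1.61 (difference 6.38), and COL1A2 differed by 2.71 (adjusted p = 4.41e-06). MMP2 was -4.59 on day 1 and -0.21 on day 7 (difference 4.39, adjusted p = 4.41e-06), and IGF1 was -4.25 and -0.39 (difference 3.86). Versican, which was not called on day 1, was 3.60 above sham on day 7 (difference 3.85).

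Of the 12 contraction genes, 6 were higher on day 7 than on day 1 and 2 were lower. ACTA2 was -5.14 on day 1 and -0.49 on day 7 (difference 4.65, adjusted p = 8.65e-06), and TPM1 differed by 3.44. MYH11 was -5.33 on day 1 and -6.49 on day 7 (difference -1.16, adjusted p = 0.0494), PRKG1 was -3.37 and -3.29, and SYNPO2 was -4.14 and -4.28. The differences of PRKG1 (0.08) and SYNPO2 (-0.14) were not called. Of the 10 cell cycle genes, 6 were higher on day 7 than on day 1 and 2 were lower. CCNB2 was -0.17 against sham on day 1 and 3.76 on day 7 (difference 3.94, adjusted p = 8.25e-04), and CDK1 was 1.44 and 4.15 (difference 2.70). Of the 14 skeletal muscle markers, 10 were lower on day 7 than on day 1 and 1 was higher, and MYH1 was 5.15 above sham on day 1 and 0.47 on day 7 (difference -4.68, adjusted p = 3.30e-06).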

How the data were processed

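The deposited files are scanner output, 1 per array, of 45220 spots each. The spot signal was used, an intensity from which the authors' scanner software, Agilent Feature Extraction (version 9.1 per the labels, another in the file headers), had subtracted background. The authors' own log2 values, which per the methods were quantile normalized in GeneSpring, served as an alternative. Control spots and spots with an outlier flag (1.46% of spots) were left out. Intensities were set to log2 and quantile normalized, arrays 1, 3 and 5 and arrays 2, 4 and 6 of each graft group were averaged, and a probe was kept if every array of 1 or more groups had it well above background (35762 probes).

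Genes were named through RefSeq accessions and gene identifiers, which gave 6184 of 43603 probes a symbol. The brightest probe stood for a gene. One model with the groups day 1, day 7 and sham was fitted in R 4.3.3 by the limma functions lmFit and eBayes (version 3.58.1), and p-values were adjusted by Benjamini-Hochberg over all 19292 genes. Calls needed an adjusted p under 0.05 and a log2 fold change of 1 or more in either direction. The errors given are standard errors of that fit.

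Members and gene lists were chosen with earlier results of these data known. The text names the 10 largest rises and falls among called, named genes that cleared background on all 10 arrays with a gap between the groups, and any tested member of the lists. The fit was tested on simulated data with known changes. Alternatives were normexp background correction, scaling to the 75th percentile, the authors' values, other filters on dim probes, the mean of a gene's probes, other treatments of replicates and scan, and leaving out each sample. Results for a few genes are not reported here. The number of arrays limits the precision.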

Additional observations from a re-analysis of the deposited data

Results flagged for a closer look

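In 7 of 444 genes checked, 1 sham sample stood apart from the other 3 by a rule on gaps. With independent samples chance alone gives about 1 gene in 20, so these flags are fewer than chance would give. The sham samples lay in 2 pairs, so that this rate need not hold for them. The share of the sham range taken by that sample's gap was 0.904 for ADORA2B in sham replicate 4, 0.835 for AQP2, 0.965 for FN1 and 0.857 for NPR3 in replicate 3, and 0.932 for HRC, 0.846 for PTGER2 and 0.853 for SLC25A4 in replicate 2. For FN1 the sham samples read 17.85, 17.85, 17.74 and 17.85, so that the gap itself was small. For HRC they read 6.85, 7.35, 6.88 and 6.87, all below both day 1 samples.

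Another 10 genes were called in opposite directions against sham on day 1 and day 7, and the difference between the days was tested in the same model. On day 1 5 of them were above sham and on day 7 below it. EEF1A2, an elongation factor of muscle and nerve, was 3.15 and -2.68 (difference -5.84, adjusted p = 1.46e-04), PON3, a paraoxonase, was 2.63 and -2.90 (difference -5.53), and GPX3, a secreted glutathione peroxidase, was 1.98 and -2.40 (difference -4.38). CKM was 1.03 and -3.05 (difference -4.08), and SLC5A2, a sodium glucose transporter, was 1.86 and -1.17 (difference -3.03). The other 5 were below sham on day 1 and above it on day 7. The collagen COL5A2 was -3.18 and 1.58 (difference 4.77, adjusted p = 3.46e-06), and the folding enzymes of the secretory pathway PDIA3 and P4HB were -2.27 and 1.57 (difference 3.84) and -1.79 and 1.88 (difference 3.66). NPR3, the clearance receptor for natriuretic peptides, was -1.06 and 2.78 (difference 3.84), and the translation factor EIF4G1 was -1.17 and 1.06 (difference 2.23).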

How the results depend on the processing

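With the normexp background correction 5454 genes were called (2993 higher and 2461 lower) against 9818, and 65 of the 445 genes of the lists and leading changes lost their call. With day 1 and day 7 reduced to 1 sample each and sham to 2, 7132 genes were called and 70 of these genes lost their call, and the 229 called between day 7 and day 1 became 0. Scaling to the 75th percentile called 11059 genes, 69.7% of them higher, and added 50 of the 445. Leaving out 1 graft or sham sample in turn called 9336 to 9916 genes. Replicate numbers did not pair the samples, since deviations of same-numbered arrays correlated by -0.03 to 0.02, and the fit of all 16 arrays with the replicate block called 10053. Only replicate 1 matched its own number best. Other settings called 7805 to 10326 genes.

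The direction turned for EDNRA (-2.92) and PTGER2 (-3.23) with the mean of a gene's probes, and for ALOX15 (-3.40) and LPL (1.01) with sham replicates 1 and 2 alone as the control, a setting chosen after seeing the data. Of 275 of the 445 genes called, 165 were called in the same direction in every setting that tested them and 189 in all of these but the reduced one. Some dim genes were not tested in every setting. Among genes with small fold changes, F11R, SCNN1G and IL13RA2 lost their calls in 4 of 20, 5 of 18 and 5 of 20 settings. The cause of these changes was not tested. The 2 samples a graft group and genes near background on day 1 limit the precision.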

Other observations

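A few more members of the lists, chosen after their values were seen, had large day 1 differences. SLC15A2, a peptide transporter, read 6.74 and 6.77 on day 1 and 9.46, 9.56, 11.81 and 11.86 in sham (-3.92 ± 0.77), and SLC25A20, the mitochondrial carnitine carrier, read 7.49 and 7.46 and 10.29, 10.27, 11.58 and 11.48 (-3.43 ± 0.42). SLC25A4, the mitochondrial ADP/ATP carrier, fell by 1.81 on the log2 scale. Neprilysin, MME, which degrades vasoactive peptides, read 4.14 and 4.54 on day 1 and 6.33, 6.26, 10.04 and 9.86 in sham (-3.78 ± 1.20), and its call was lost in 4 of the other settings.

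Some levels stood out whatever the group. The probes named for CYP7A1, the bile acid enzyme of liver, read 18.68 and 18.59 on day 1 and 18.10, 18.14, 18.02 and 18.01 in sham, among the brightest of the array. ALOX15 read 10.71, 10.67, 3.0 and 3.54 in sham and 7.19 and 7.37 on day 1, so that the sham pairs lay on either side of the grafts. PTGER3 read 10.48, 10.49, 13.27 and 13.41 in sham and 9.82 and 9.92 on day 1.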
